A study of Mus musculus with 8 samples.

Results

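The genes described here are 39 genes of macroautophagy and of LC3-associated phagocytosis, chosen by their symbols and matched by gene identifier to a table of 54146 mouse genes. All 39 were found, and all 39 were among the 17095 genes with enough counts to be tested. Their levels were compared between FCGR4+ and FCGR4- macrophages sorted from epididymal white adipose tissue (eWAT) of obese C57Bl6 mice. FCGR4 is a receptor for the Fc part of IgG, through which macrophages take up antibody-coated targets. Every mouse had been fed a high fat diet ad libitum for 24 weeks and was then kept for 2 weeks on short-term caloric restriction (stCR), with 30% less food, so both populations share the diet, the restriction and the animal. The cells were sorted as CD45+, CD3-, B220-, Ly6G-, SiglecF- and CD11b+ and then split by FCGR4. Each of 4 mice gave 1 library of each population, which makes 8 bulk RNA-Seq libraries and 4 pairs. There was no group on the diet without stCR, so the comparison is between populations after weight loss and not between diets.

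Macroautophagy encloses cytoplasm, organelles or protein aggregates in a double membrane that is delivered to the lysosome. The ULK1 kinase complex and a class III PI3-kinase complex start the membrane, lipid transfer proteins enlarge it, and a pair of ubiquitin-like conjugation systems attach LC3 and GABARAP proteins to it, where cargo receptors dock. In LC3-associated phagocytosis the same conjugation machinery places LC3 on the single membrane of a phagosome that holds a taken-up particle or dead cell. That form needs Rubicon and the NADPH oxidase and does not need the ULK1 complex, and it is best known from macrophages clearing dead cells and microbes. Much of the control of both routes acts on proteins and membranes, which RNA levels do not measure.

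The libraries held between 35992794 and 66856746 counts. *Fcgr4* itself was higher in the FCGR4+ library of 4 of 4 mice, with a log2 fold change of 1.61 (adjusted P = 0.0162, edgeR's quasi-likelihood test with Benjamini-Hochberg adjustment), and FCGR4- libraries still held 48.5 to 82.9 normalized CPM of it, where normalized CPM are counts scaled to a common library size (CPM) after TMM normalization for composition. The 12 macrophage markers summed to 30599 to 55093 normalized CPM in FCGR4+ and 24433 to 48518 in FCGR4- libraries, higher in FCGR4+ cells of 4 of 4 mice. *Lyz2* was the largest part of each sum, at 16762 to 39810 in FCGR4+ and 14387 to 38655 normalized CPM in FCGR4- libraries. The log2 fold change was above 0 for 10 of the 12 and below 0 for *Csf1r* (-0.21) and *Cd14* (-0.42). Of these 12 markers, 0 passed the threshold in edgeR's test, 7 were higher at an unadjusted P under 0.05, and DESeq2 called 7 higher. Summed markers of several other cell types were higher in FCGR4- cells of 4 of 4 mice. The sum of the 10 adipocyte markers, nearly all of it *Lpl*, which macrophages also express, was higher in FCGR4+ cells of 4 of 4 mice, at 2560 to 5592 normalized CPM against 1500 to 4599. Of these 10 markers, 7 had a log2 fold change below 0 and 0 passed the threshold in edgeR's test, while at an unadjusted P under 0.05 there were 2 higher and 1 lower, and DESeq2 called 1, as higher. Summed endothelial and eosinophil markers were lower in FCGR4+ cells in 3 of 4. The 10 mast cell and basophil markers summed to 14.5 to 30.5 normalized CPM in FCGR4+ and 392 to 2162 in FCGR4- libraries, and 9 of them passed the threshold as lower in edgeR's test. The other, *Mcpt8*, had too few counts to be tested, with 0 in the FCGR4+ libraries and 71, 0, 1 and 13 in the FCGR4- libraries. The 10 dendritic cell markers summed to 24.4 to 35.2 against 81.1 to 157, the 10 neutrophil markers to 122 to 548 against 383 to 2390, and the 10 fibroblast and preadipocyte markers to 139.6 to 276 against 342 to 1462. The part of these cells in the values of the autophagy genes was not tested. In such bulk libraries, a smaller share of cells that use a gene and less of its RNA per cell cannot be told apart.

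None of the 39 autophagy genes differed between FCGR4+ and FCGR4- macrophages past the threshold, an adjusted P under 0.1 in the quasi-likelihood test of edgeR, fitted within mice and adjusted by the Benjamini-Hochberg method over all genes. Over all 17095 genes tested, 1.27% passed it, with 0.0819% higher and 1.19% lower in FCGR4+ cells, so that a list of this size would hold few such genes at the background rate. The smallest adjusted P among the members was 0.349 by edgeR, for *Atg4c*. Without adjustment, 1 member had a P under 0.05 in edgeR's test, against 9.77% of all genes tested. DESeq2 with the same pairs called 0 members as well, where it called 1.12% of all genes higher and 4.87% lower.

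What the data bound is the size of a difference. No member had a fitted change of more than 1.5-fold in either direction, against 20.9% of all genes tested and 6.94% of the 10019 genes with a mean of at least 5 normalized CPM, the range in which every member lay. For 22 of the 39 members the whole 95% interval of the change stayed within 1.5-fold in both directions, compared with 25.5% of all genes and 43.2% of the genes of at least 5 normalized CPM. The intervals reached 0.40 on either side of the estimate in the median member on the log2 scale, with a narrowest of 0.29 and a widest of 0.77. The lowest end of any interval was -1.22, for *Optn*, and the highest was 0.92, for *Atg4c*. Behind these values stood between 158 and 42866 counts per member and library. The count of 22 depended on the mice, and it was 12 without mouse 1, 8 without mouse 2 and 12 without mouse 4. It was also lower with no replicate block and with scaling by library size alone.

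**Figure D1:**
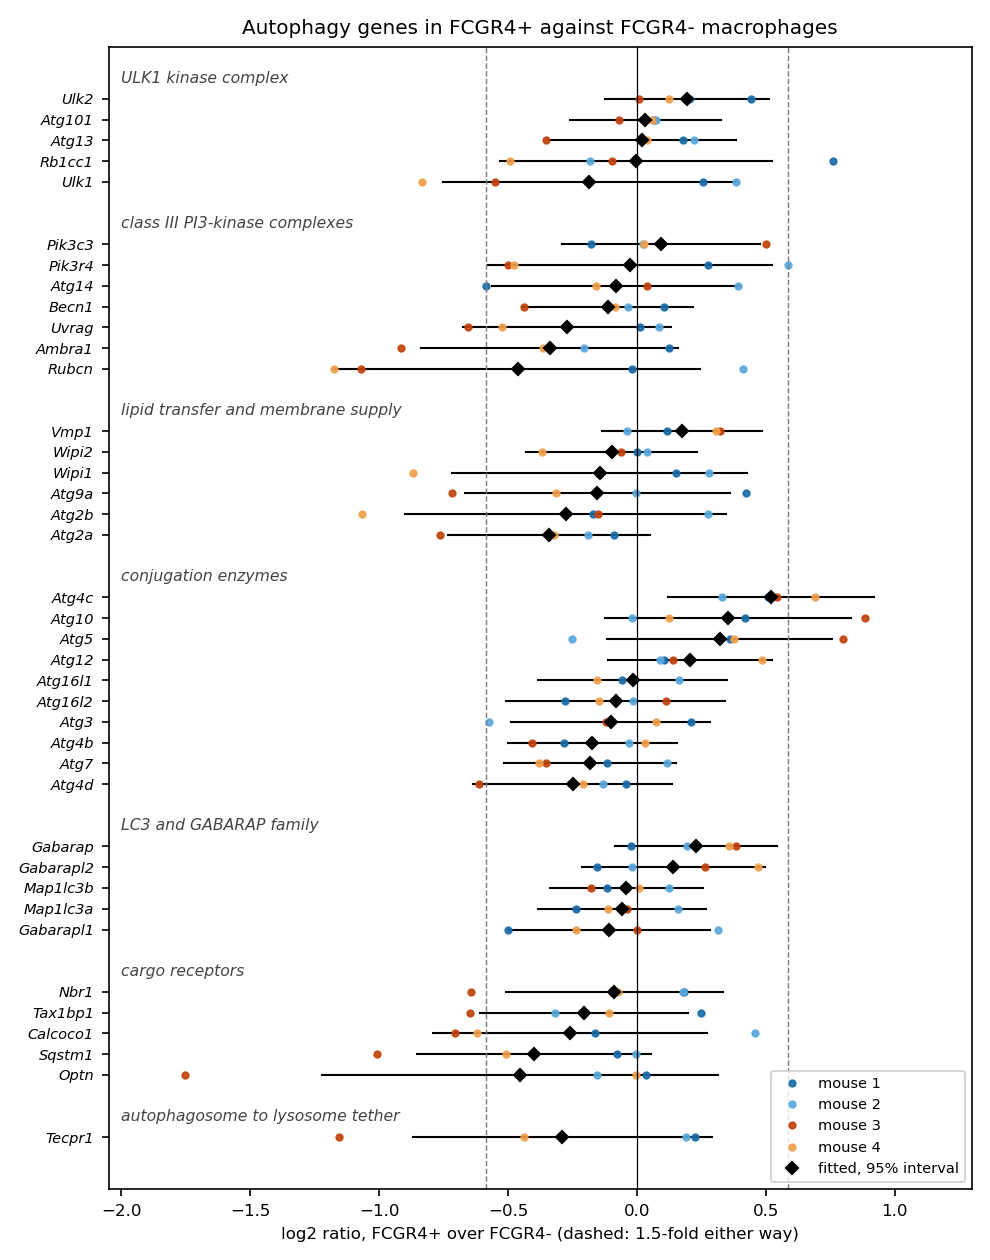
Log2 ratio of FCGR4+ over FCGR4- macrophages for the 39 genes, grouped by role, with the ratio in each of the 4 mice as colored points and the fitted log2 fold change with its 95% interval as a black diamond and line. The dashed lines mark a 1.5-fold difference, all 39 diamonds lie between them, and 22 of the lines do so as a whole.

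The fitted log2 fold changes ran from -0.46 to 0.52 with a median of -0.10, and the median over all genes tested was -0.003. Of the members, 11 lay above 0 and 28 below it, whereas 49.7% of all genes lay above 0. The FCGR4+ library was the higher one in 4 of 4 mice for 3 members, *Ulk2*, *Atg4c* and *Atg12*, and 8.38% of all genes did the same. It was the lower one in 4 of 4 mice for 3 members, *Atg2a*, *Atg4d* and *Sqstm1*, against 10.5% of all genes. The levels of the populations overlapped for all 39 members, while over all genes they were apart for 0.883% with FCGR4+ higher and for 3.02% with FCGR4+ lower.

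**Figure D2:**
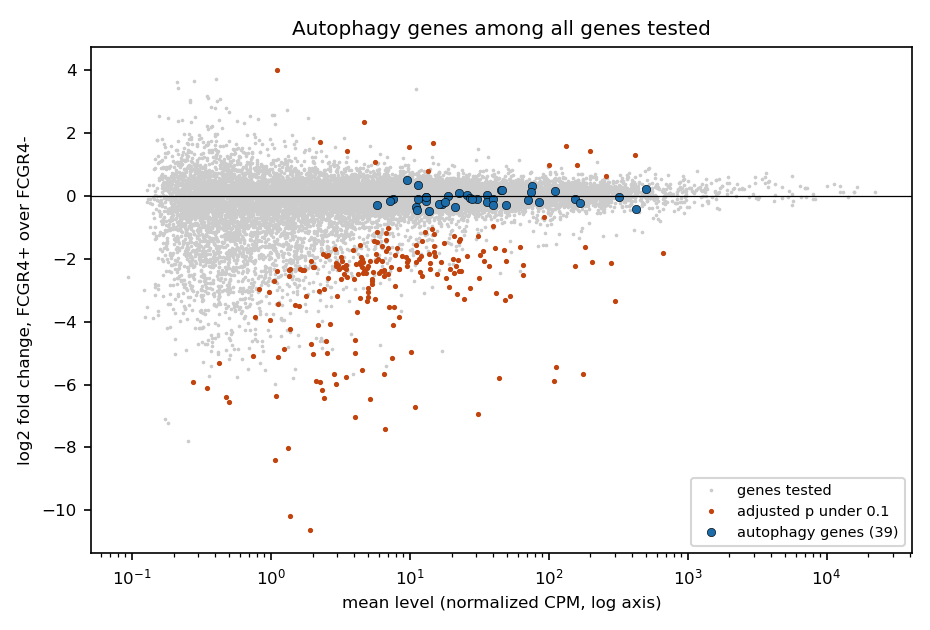
Fitted log2 fold change of FCGR4+ over FCGR4- macrophages against mean normalized CPM (log axis) for the 17095 genes tested, with the 217 genes past the threshold in orange and the 39 autophagy genes in blue. The blue points lie between 5.82 and 504 normalized CPM and stay close to 0, between -0.46 and 0.52.

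Per kilobase of exon, which allows levels of different genes to be compared, the members' mean levels covered a wide range. *Gabarap*, which encodes a ubiquitin-like protein that is attached to autophagosome membranes, had the highest level, with 273 normalized CPM per kb. *Sqstm1*, the gene of the cargo receptor p62, followed with 126. *Atg3*, the enzyme that passes LC3 to its lipid, came next with 49.4 and *Map1lc3b*, the LC3 gene most used as an autophagosome marker, with 42.5 normalized CPM per kb. At the low end stood *Atg16l2*, a relative of the LC3 conjugation factor *Atg16l1*, with 0.897, and *Atg2b*, a lipid transfer protein, with 0.433.

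The 5 LC3 and GABARAP genes had 5 of 5 intervals inside 1.5-fold and a median log2 fold change of -0.04. *Map1lc3b* was at 282, 363, 316 and 301 normalized CPM in the FCGR4+ macrophages of mice 1 to 4 and at 306, 333, 357 and 299 in their FCGR4- macrophages. The populations overlapped, FCGR4+ cells were higher in mice 2 and 4 only, and the log2 fold change was -0.04 with a 95% interval of -0.34 to 0.26. *Map1lc3a*, the second LC3 gene, was at 22.3, 24.5, 32.8 and 26.9 normalized CPM in FCGR4+ cells and 26.3, 21.9, 33.7 and 29.1 in FCGR4- cells. The level of *Map1lc3a* differed more between mice than between populations, with mouse 3 highest in both, and its interval ran from -0.38 to 0.27.

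*Gabarap* was at 368, 477, 685 and 667 normalized CPM in FCGR4+ cells and at 373, 417, 524 and 519.95 in FCGR4- cells. Mice 3 and 4 had the highest levels in both populations, FCGR4+ cells were higher in mice 2, 3 and 4, and the log2 fold change was 0.23 (-0.08 to 0.54). *Gabarapl2*, a family member also known as GATE-16, was at 80.6, 74.7, 74.1 and 82.7 in FCGR4+ cells and at 89.7, 75.6, 61.6 and 59.7 normalized CPM in FCGR4- cells. FCGR4+ levels of *Gabarapl2* lay close together while FCGR4- levels were high in mouse 1 and low in mice 3 and 4. *Gabarapl1* was at 29.5, 51.2, 41.6 and 33.6 normalized CPM in FCGR4+ cells and at 41.8, 41.2, 41.6 and 39.6 in FCGR4- cells, so here it was the FCGR4+ libraries that spread, on both sides of a narrow FCGR4- range. The intervals were -0.21 to 0.50 for *Gabarapl2* and -0.50 to 0.28 for *Gabarapl1*.

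**Figure D3:**
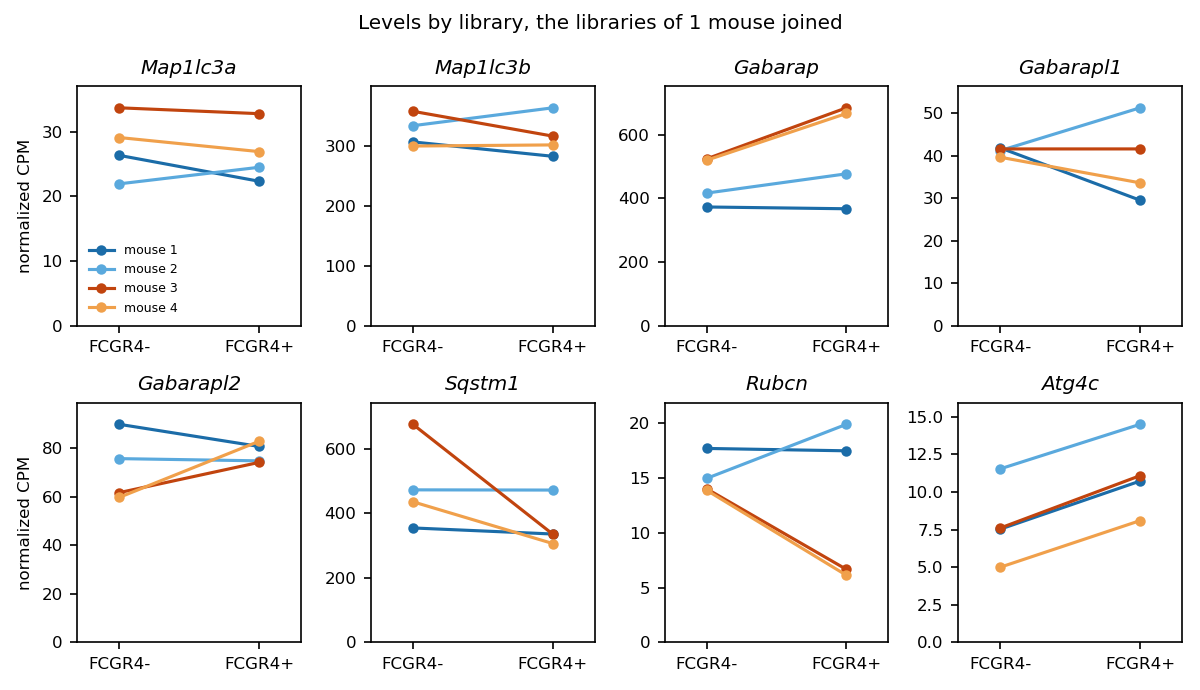
Normalized CPM of the 5 LC3 and GABARAP genes and of *Sqstm1*, *Rubcn* and *Atg4c* in each library, with a line joining the FCGR4- and FCGR4+ libraries of 1 mouse and every axis starting at 0. The lines of *Atg4c* all slope upward, from between 4.997 and 11.5 normalized CPM in FCGR4- cells to between 8.09 and 14.5 in FCGR4+ cells, those of *Rubcn* part between mice 1 and 2 and mice 3 and 4, and those of *Map1lc3b* cross.

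Among the 5 genes of the ULK1 complex, which starts autophagosome formation when nutrients are scarce, the median log2 fold change was 0.02 and 4 intervals lay within 1.5-fold. *Ulk2*, a kinase closely related to ULK1, was at 74.6, 57.5, 33.1 and 34.1 normalized CPM in FCGR4+ cells and 54.9, 49.9, 33.0 and 31.3 in FCGR4- cells. Its level was higher in FCGR4+ cells of 4 of 4 mice, although barely so in mouse 3, and lower in mice 3 and 4 than in mice 1 and 2 in either population. The log2 fold change of *Ulk2* was 0.19 (SE 0.135, adjusted P = 0.648 by edgeR). The kinase gene *Ulk1* itself had log2 ratios of 0.26 and 0.38 in mice 1 and 2 and of -0.55 and -0.83 in mice 3 and 4, for a fitted value of -0.18 with an interval of -0.75 to 0.38. The remaining 3, the scaffold *Rb1cc1* (FIP200) and the subunits *Atg13* and *Atg101*, had log2 fold changes between -0.005 and 0.03.

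The class III PI3-kinase genes had a median of -0.11, with 1 of 7 above 0 and 4 of 7 intervals inside 1.5-fold. *Pik3c3* (VPS34), the lipid kinase, was at 22.3, 26.4, 22.0 and 22.8 normalized CPM in FCGR4+ cells and at 25.2, 25.9, 15.5 and 22.3 in FCGR4- cells. The one library apart was the FCGR4- library of mouse 3, which was low, and the log2 fold change was 0.09 (-0.29 to 0.48). *Becn1*, the scaffold Beclin 1, was at 60.9, 81.3, 60.8 and 71.2 normalized CPM in FCGR4+ cells and at 56.6, 83.3, 82.4 and 75.5 in FCGR4- cells, a log2 fold change of -0.11 (-0.45 to 0.22). Levels of *Becn1* overlapped in full, and FCGR4+ cells were lower in mice 2, 3 and 4.

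*Rubcn* encodes Rubicon, which restrains canonical autophagy and is required for LC3-associated phagocytosis, and it had the lowest fitted value of the members. On mm10 it lies on the minus strand at chr16:32821703-32877766. Its levels were 17.5, 19.9, 6.66 and 6.12 normalized CPM in FCGR4+ macrophages and 17.7, 14.9, 14.01 and 13.9 in FCGR4- macrophages. FCGR4+ cells were thus close to or above FCGR4- cells in mice 1 and 2 and below every FCGR4- library in mice 3 and 4. The log2 fold change over 4 mice was -0.46 (SE 0.301, 95% interval -1.17 to 0.25, adjusted P = 0.632 by edgeR). As a ratio, the interval ran from 0.444-fold to 1.185-fold. *Uvrag* and *Atg14*, which define alternative PI3-kinase complexes, had values of -0.27 and -0.08, the regulator *Ambra1* had -0.34, and the complex subunit *Pik3r4* (VPS15) had -0.03.

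Of the 6 genes of lipid transfer and membrane supply, 1 lay above 0 and 2 intervals stayed within 1.5-fold. *Atg2a*, which moves lipid into the growing membrane, was at 21.0, 24.1, 13.4 and 16.5 normalized CPM in FCGR4+ cells and at 22.3, 27.5, 22.8 and 20.6 in FCGR4- cells. FCGR4+ cells were lower in 4 of 4 mice with overlapping ranges, and the log2 fold change was -0.34 (SE 0.167, adjusted P = 0.557 by edgeR). *Atg2b*, *Atg9a* (a lipid scramblase of the vesicles that seed the membrane), *Wipi1* and *Wipi2* (readers of PI3-phosphate) had log2 fold changes of -0.28, -0.15, -0.14 and -0.10. *Vmp1*, an endoplasmic reticulum protein needed for the membrane to mature, had 0.18, with levels between 98.0 and 138 normalized CPM in FCGR4+ and between 100.3 and 110.2 in FCGR4- cells.

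The 10 conjugation enzymes held the highest fitted values as well as members near 0, with a median of -0.05 and 6 intervals within 1.5-fold. *Atg4c*, a protease that trims LC3 and GABARAP proteins, lies on the plus strand at chr4:99193934-99259787. Its levels were 10.7, 14.5, 11.1 and 8.09 normalized CPM in FCGR4+ cells and 7.53, 11.5, 7.60 and 4.997 in FCGR4- cells. In each mouse the FCGR4+ library was higher, by log2 ratios of 0.51, 0.33, 0.54 and 0.69, and the ranges overlapped because the FCGR4- library of mouse 2 was above the FCGR4+ libraries of mice 1, 3 and 4. The fitted difference was 1.43-fold, with a 95% interval of 1.09-fold to 1.89-fold, and the only one among the members whose interval left out 0 on the log2 scale. After adjustment over all genes it did not pass (adjusted P = 0.349 by edgeR, 0.152 by DESeq2).

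*Atg5*, whose product is joined to ATG12 to build the LC3 ligase, was at 84.3, 81.9, 97.5 and 68.3 normalized CPM in FCGR4+ cells and at 65.7, 97.6, 56.0 and 52.6 in FCGR4- cells. It was higher in FCGR4+ cells of mice 1, 3 and 4 and lower in mouse 2, with a log2 fold change of 0.32 (-0.11 to 0.76). *Atg12* was at 48.0, 55.2, 43.7 and 47.1 in FCGR4+ cells and at 44.6, 51.8, 39.7 and 33.6 normalized CPM in FCGR4- cells, higher in 4 of 4 mice but by little outside mouse 4, with a log2 fold change of 0.21 (-0.11 to 0.52). *Atg7*, the E1-like enzyme that activates both ATG12 and LC3, was at 68.9, 106, 74.7 and 70.3 normalized CPM in FCGR4+ cells and at 74.7, 98.2, 95.4 and 91.5 in FCGR4- cells. FCGR4+ cells had less *Atg7* in mice 1, 3 and 4, and the fitted log2 value was -0.18 (-0.52 to 0.15).

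*Atg16l1*, the subunit that brings the ligase to the membrane and whose WD40 domain is needed for LC3 on phagosomes, was the closest to equal of the conjugation genes. It was at 15.6, 14.2, 12.1 and 10.7 normalized CPM in FCGR4+ cells and at 16.3, 12.7, 12.2 and 11.9 in FCGR4- cells. Its levels followed the mouse, high in mouse 1 and low in mouse 4, and the log2 fold change was -0.02 (-0.38 to 0.35). *Atg4d*, another LC3 protease, was at 12.1, 17.8, 13.9 and 17.9 in FCGR4+ cells and at 12.4, 19.5, 21.3 and 20.7 normalized CPM in FCGR4- cells, lower in 4 of 4 mice with a log2 fold change of -0.25 (-0.64 to 0.14). The E2-like enzymes *Atg3* and *Atg10* had log2 fold changes of -0.10 and 0.35, the protease *Atg4b* had -0.17 and *Atg16l2* had -0.08.

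Several autophagy and lysosome genes carry the hexamer CACGTG near their start, the core that TFEB and related factors bind. The hexamer reads the same on both strands, so a match counts for both. It was searched in the window from 250 bases before to 50 after the transcript start in RefSeq (build GRCm38.p6), which gave 39 windows for 33 of the member genes. It was found in 5 of these windows, or 12.8%, and in 7.15% of 32851 windows of all genes. The longer form TCACGTGA, which contains the hexamer, was in 1 member window, or 2.56%, against 0.974% of all windows. The members with a match are shown with the hexamer in capitals and 12 bases on either side, because they include the conjugation enzymes and *Rubcn* described above.
Atg3, chr16:45158723-45158752, plus strand: gcctccttttgtCACGTGtcctgggagagt
Atg3, chr16:45158746-45158775, plus strand: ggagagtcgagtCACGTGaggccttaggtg
Atg5, chr10:44268313-44268342, plus strand: cggagcgcttgcCACGTGgtcttggtgacg
Atg7, chr6:114670952-114670981, plus strand: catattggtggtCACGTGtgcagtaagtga
Atg14, chr14:47568418-47568447, minus strand: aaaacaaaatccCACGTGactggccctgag
Rubcn, chr16:32868437-32868466, minus strand: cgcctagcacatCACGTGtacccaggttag
The first base of the hexamer stood 94 and 71 bases before the RefSeq start in *Atg3*, 14 in *Atg5*, 132 in *Atg7*, 1 in *Atg14* and 88 in *Rubcn*. The log2 fold changes of these 5 genes were -0.10, 0.32, -0.18, -0.08 and -0.46, so members with the hexamer lay on both sides of 0. A match describes the letters in this window and says nothing of binding in these cells.

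All 5 cargo receptors had a fitted value below 0, with a median of -0.26 and 1 interval within 1.5-fold. *Sqstm1* (p62), which links ubiquitinated cargo to LC3 and is itself degraded by autophagy, lies on the minus strand at chr11:50199366-50210827. It was at 336, 473, 336 and 307 normalized CPM in FCGR4+ cells and at 355, 473, 677 and 436 in FCGR4- cells. Levels were nearly equal in mice 1 and 2 and lower in FCGR4+ cells of mice 3 and 4, and the FCGR4- library of mouse 3 stood above all others. The log2 fold change of *Sqstm1* was -0.40 (SE 0.193, 95% interval -0.85 to 0.06, adjusted P = 0.554 by edgeR).

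*Optn* (optineurin), a receptor for damaged mitochondria and bacteria, had the widest interval of all members, and mouse 3 stood apart from the rest. It was at 8.77, 15.2, 4.97 and 9.51 normalized CPM in FCGR4+ cells and at 8.56, 16.9, 16.8 and 9.54 in FCGR4- cells. The log2 ratios were 0.03, -0.15 and -0.005 in mice 1, 2 and 4 and -1.75 in mouse 3. The fitted log2 fold change was -0.45 (-1.22 to 0.31) over 4 mice and -0.05 without mouse 3. The FCGR4- library of mouse 3 also had the highest summed neutrophil markers (2390 normalized CPM) and fibroblast markers (1462 normalized CPM) of the 8 libraries. *S100a8* (1211) and *S100a9* (725) made up most of that neutrophil sum, with *Ly6g* at 5.45 and *Ngp* at 1.01 normalized CPM. For *Optn* the FCGR4- libraries of mice 2 and 3 were level, and the summed markers of that library of mouse 2 were 579 and 342. The FCGR4+ library of mouse 3 was the lowest of the 8 in *Optn*. The part of other cells in the levels of *Sqstm1* and *Optn* was not tested. *Nbr1*, *Tax1bp1* and *Calcoco1*, receptors for aggregates and other cargo, had log2 fold changes of -0.09, -0.21 and -0.26.

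*Tecpr1*, which tethers autophagosomes to lysosomes, was at 27.7, 95.9, 14.9 and 16.2 normalized CPM in FCGR4+ macrophages and at 23.7, 84.0, 33.2 and 22.0 in FCGR4- macrophages. Both libraries of mouse 2 were far above the rest, FCGR4+ cells were higher in mice 1 and 2 and lower in mice 3 and 4, and the log2 fold change of -0.29 had an interval of -0.87 to 0.29.

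The mice fall into pairs by their labels, since mice 1 and 2 share an animal ID prefix and mice 3 and 4 share another, whose meaning the labels do not give. The median log2 ratio of the 39 members was 0.03 and 0.09 in mice 1 and 2 and -0.15 in both mice 3 and 4, and the median over all genes tested was 0.03, -0.002, -0.05 and -0.001. Over the 10019 genes of at least 5 normalized CPM, the range of the members, the median in mice 1 to 4 was 0.08, 0.03, 0.003 and 0.01. Members above 0 numbered 21, 23, 12 and 14 in the same order. With mice 1 and 2 alone the median fitted log2 fold change was 0.05, and with mice 3 and 4 alone it was -0.24, beside all-gene medians of 0.01 and -0.08 in the same fits. In the fit of mice 3 and 4 alone, 0 members and 72 of 18125 genes passed the threshold, and the smallest adjusted P of a member was 0.140 by edgeR, for *Rubcn*.

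The difference between the pairs was tested for every gene as an interaction in edgeR's quasi-likelihood fit. It passed an adjusted P of 0.1 for 0 members and for 0% of all genes, and with no filter on low counts for 0 members and 115 genes in all. Without adjustment it had a P under 0.05 for 7 members, *Ulk1*, *Pik3r4*, *Uvrag*, *Rubcn*, *Sqstm1*, *Calcoco1* and *Tecpr1*, against 13.8% of all genes. All 7 had a lower ratio in mice 3 and 4 than in mice 1 and 2. This unadjusted count rested on the mice, as it was 1 without mouse 2, 3 without mouse 3 and 5 without mouse 4. The lowest P was that of *Rubcn*, whose fitted log2 fold change was 0.19 in mice 1 and 2 and -1.15 in mice 3 and 4, a difference of -1.32 in the common fit (SE 0.296, adjusted P = 0.303 by edgeR). A direction shared by both mice of each pair and opposite between the pairs was seen for 7 members, near the 17% seen for all genes. Of those 7, *Ulk1*, *Pik3r4*, *Uvrag*, *Wipi1*, *Nbr1* and *Tecpr1* were higher in FCGR4+ cells of mice 1 and 2 and lower in mice 3 and 4, and *Gabarapl2* was the reverse.

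The ratios also moved with the length of the gene. Across the 39 members, the rank correlation between exonic length and log2 ratio was 0.03 and -0.004 in mice 1 and 2, and -0.45 and -0.57 in mice 3 and 4. Across the 10019 genes of at least 5 normalized CPM it was 0.33, -0.08, -0.26 and -0.23. These are correlations across genes of the same libraries and are given as a description. When these genes were cut into 5 bins of equal number by length, the shortest, of up to 1764 bases, had median log2 ratios of -0.11, 0.06, 0.41 and 0.27 in mice 1 to 4, and the longest, of at least 7027 bases, had 0.21, -0.02, -0.13 and -0.08.

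Of the members, 15 were in the bin of the longest genes and 3 in that of the shortest. The 15 long members had median log2 ratios of -0.02, 0.04, -0.44 and -0.32. The share of counts from mitochondrial genes moved with the same pairs of mice, being 8.31% in FCGR4+ and 9.88% in FCGR4- cells of mouse 1, 4.35% and 6.43% in mouse 2, 7.87% and 5.21% in mouse 3, and 6.67% and 4.13% in mouse 4. Whether length or RNA quality had a part in the members' ratios was not tested beyond a fit with length offsets, which called 0 members and left *Atg4c* with the smallest adjusted P (0.339 by edgeR).

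**Figure D4:**
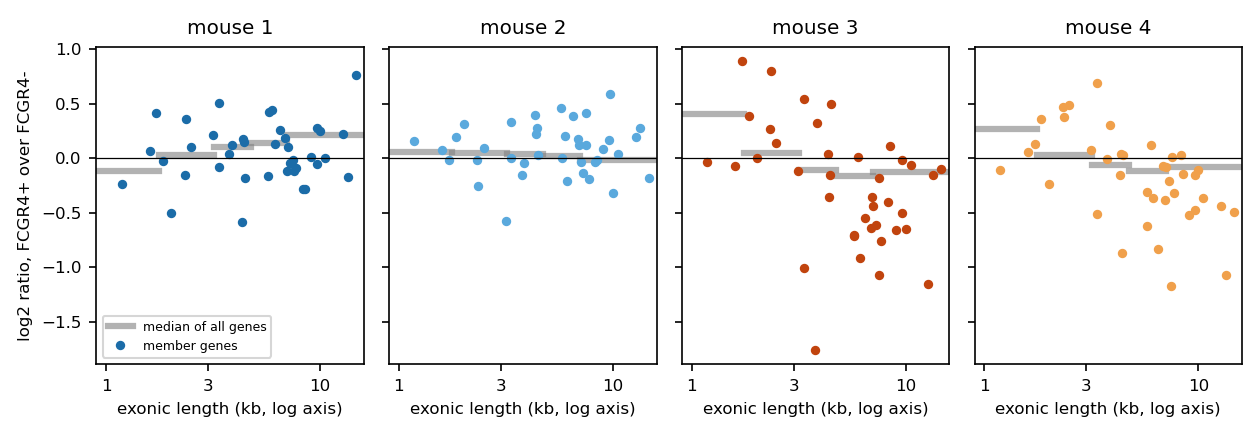
Log2 ratio of FCGR4+ over FCGR4- against exonic length in kb (log axis) for the 39 members, in 1 panel per mouse, with gray bars for the median ratio of all genes of at least 5 normalized CPM in each of 5 length bins. Points and bars slope downward in mice 3 and 4, where the rank correlations of the members are -0.45 and -0.57, while the bars of mouse 1 slope upward.

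In 5 further lists of neighboring pathways, 0 genes passed the threshold in edgeR's test, 3 had an unadjusted P under 0.05 (*Wdfy3*, *Prkab2* and *Mtor*), and DESeq2 called 1. Among 15 other core autophagy genes tested the median log2 fold change was -0.04, and the largest was that of *Wdfy3* (ALFY), an adaptor for aggregates. *Wdfy3* was at 100.3, 68.2, 61.1 and 52.2 normalized CPM in FCGR4+ cells and at 66.8, 57.1, 41.7 and 41.5 in FCGR4- cells, higher in 4 of 4 mice. Its log2 fold change was 0.43 (SE 0.131, adjusted P = 0.306 by edgeR), and with DESeq2 its adjusted P was 0.0572. Among 23 genes of autophagosome and phagosome fusion with the lysosome, the median was 0.08 with 17 above 0, and the largest value was 0.51 (-0.14 to 1.16), for *Tecpr2*.

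Of 10 genes of the NADPH oxidase and of factors linked to LC3-associated phagocytosis, 4 lay above 0, with a median of -0.05. The list of 10 includes *Clec7a* and also *Slamf1*, whose mean was only 0.218 normalized CPM. *Cybb*, the catalytic subunit NOX2, was at 1690, 1082, 901 and 837 normalized CPM in FCGR4+ cells and at 980.2, 1282, 814 and 676 in FCGR4- cells. Levels of *Cybb* overlapped, were higher in FCGR4+ cells of mice 1, 3 and 4, and gave a log2 fold change of 0.25 (-0.18 to 0.68). *Ncf1* (p47phox), a cytosolic subunit of the oxidase, had the largest change among oxidase genes of at least 1 normalized CPM, with -0.30 (-0.84 to 0.24). Its log2 ratios were 0.17 and 0.23 in mice 1 and 2 and -0.94 and -0.67 in mice 3 and 4.

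Among 19 receptors of mitophagy and ER-phagy the median log2 fold change was -0.02, with 9 above 0. The 37 upstream kinases and transcription regulators had a median of -0.005, with 18 above 0. *Fnip1*, a partner of folliculin in nutrient sensing at the lysosome, was at 34.6, 21.4, 38.9 and 36.4 normalized CPM in FCGR4+ cells and at 17.8, 30.8, 21.4 and 12.8 in FCGR4- cells. FCGR4+ cells had more *Fnip1* in mice 1, 3 and 4 and less in mouse 2, a log2 fold change of 0.71 (SE 0.315, adjusted P = 0.518 by edgeR). With no filter on low counts, *Fnip1* passed the threshold (adjusted P = 0.0736 by edgeR). *Prkab2*, a subunit of the energy sensor AMPK chosen after its values were seen, was lower in FCGR4+ cells with no overlap, at 4.15, 3.35, 3.31 and 2.59 against 5.91, 5.47, 5.38 and 4.45 normalized CPM, and did not pass either (log2 fold change -0.67, adjusted P = 0.342 by edgeR). Over all genes, 3.02% were apart in this direction and 0.883% in the other. *Sh3glb1*, of the other core autophagy genes, was apart with FCGR4+ higher, at 318 to 360 against 270 to 304 normalized CPM (adjusted P = 0.577 by edgeR).

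The counting limits what can be said of some members. Strand was not used, and pairs on exons of overlapping genes were left uncounted. In a later annotation of the same build, 6 members have at least 10% of their exon bases inside another gene, with 43.9% in *Becn1* (*Cntd1*, opposite strand), 32.6% in *Atg9a*, 28.3% in *Gabarapl1*, 19.3% in *Atg4d*, 17.6% in *Uvrag* and 17.3% in *Sqstm1* (*Mrnip*, opposite strand). Where the models used for counting overlap in the same way, their levels are those of the remaining exons, which was not checked. *Gabarapl2* shares 12.2% of its 50-base words with other genes, mainly the gene model *Gm3724*, and *Map1lc3b* shares 6.01%, mainly with *Gm6055*, so that pairs from such copies could be counted in both places.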

How the data were processed

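RNA of FCGR4+ and FCGR4- eWAT macrophages of 4 mice was sequenced. The authors mapped read pairs to mm10 with STAR and counted them per gene with featureCounts 1.6.3 on GENCODE vM18, and they deposited the raw counts. Per the file headers, strand was ignored, and a pair with several mapping places added a count at every one. The deposited gene length, in bases of exon, served only for levels per kb and length comparisons. No per-sample column was left out.

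Libraries were grouped by the sample labels, which number the mouse, so that libraries with the same number come from the same animal. The correlation of deviations from the population means was 0.291 to 0.428 within mice, with a median of -0.06 between mice. No libraries were duplicates. Genes reaching 10 counts in 4 or more libraries were kept. After TMM normalization (factors 0.937 to 1.11), the quasi-likelihood test of edgeR 4.0.16 (R 4.3.3) was fitted with a term for the mouse, and P values were adjusted by Benjamini-Hochberg over all genes tested, with 0.1 as the threshold. A value of 3 counts corresponds to between 0.0440 and 0.0883 normalized CPM. Ratios within a mouse used log2 CPM (prior count 2), and SEs are the log2 fold change over the square root of F. Intervals of 95% are from the same fit. The fit was tested on simulated data.

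The members and lists were chosen with earlier results of these data known. Values per library are given for the LC3 and GABARAP genes, *Rubcn*, *Atg16l1*, *Becn1*, *Pik3c3*, *Atg5*, *Atg7*, *Cybb* and *Sqstm1*, and for up to 8 members with the largest changes among those of 1 direction in 4 of 4 mice (6 existed). In each other list the gene of the largest change with a mean of at least 1 normalized CPM is named, except in the list of mitophagy and ER-phagy receptors, where it is not reported here. *Optn*, *Tecpr1*, *Prkab2* and *Sh3glb1* were added after their values were seen. Alternatives were no replicate block, DESeq2 1.42.0, scaling by RLE or by library size alone, other filters, a threshold of 0.05, edgeR's other quasi-likelihood method, leaving out each mouse, each pair of mice alone and, chosen after seeing the data, length-bin offsets. Exon overlap and shared 50-base words were computed from GENCODE models newer than those of the counts, on the same build.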

Additional observations from a re-analysis of the deposited data

Results flagged for a closer look

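The log2 ratio of 1 mouse stood far from the other 3 for 3 of the 39 members. Each is given with its gap to the nearest other mouse divided by the range over the 4 mice, and all 3 gaps exceeded Dixon's 95% critical value for 4 samples. Chance marks about 1 in 20 groups, or 1.95 of 39. The gap was 0.895 of the range for *Optn*, at -1.75 in mouse 3 and between -0.15 and 0.03 in the others. It was 0.889 for *Atg101*, at -0.07 in mouse 3 and between 0.06 and 0.07 in the others, where the whole range is small. For *Atg12* it was 0.876, with 0.49 in mouse 4 and between 0.09 and 0.14 in the others.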

How the results depend on the processing

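Under all 15 alternatives, 0 members passed the threshold, 6 members moved in 1 direction in 4 of 4 mice wherever this was computed, and 0 members had an adjusted P under 0.1 for the interaction between the pairs of mice under the 9 alternatives that were fitted for it. Those with an unadjusted interaction P under 0.05 in edgeR's test, 7 in the fit reported, numbered 6 with RLE size factors, 9 with library size alone and 1 to 7 when 1 mouse was left out. DESeq2 and the fit with no filter on low counts each put 1 gene of the other lists past the threshold. The 22 members with an interval within 1.5-fold became 13 with no replicate block, 14 with library size alone, 6 with mice 3 and 4 alone, and 8 to 21 when 1 mouse was left out. The member median moved to 0.048 with mice 1 and 2 alone and to -0.24 with mice 3 and 4 alone. With no replicate block the smallest adjusted P of a member was 0.919 by edgeR, and the block changed no call among the members. Over all alternatives, 16 members kept their direction and 23 changed it under at least 1, in each case without having passed the threshold. Reversed log2 fold changes with no replicate block were 0.080 for *Rb1cc1* and 0.12 for *Pik3r4*. With library size alone they were -0.068 for *Atg13* and -0.058 for *Atg101*, with no filter 0.015 for *Rb1cc1* and 0.0031 for *Atg16l1*, with the other quasi-likelihood method 0.0045 for *Rb1cc1*, and with length-bin offsets, chosen after seeing the data, -0.041 for *Atg101*. With mice 1 and 2 alone they were 0.32 for *Ulk1*, 0.29 for *Rb1cc1*, 0.034 for *Becn1*, -0.078 for *Pik3c3*, 0.43 for *Pik3r4*, 0.048 for *Uvrag*, 0.19 for *Rubcn*, 0.050 for *Atg2b*, 0.21 for *Atg9a*, 0.22 for *Wipi1*, 0.018 for *Wipi2*, 0.051 for *Atg16l1*, 0.0019 for *Map1lc3b*, -0.087 for *Gabarapl2*, 0.18 for *Nbr1*, 0.14 for *Calcoco1* and 0.21 for *Tecpr1*. With mice 3 and 4 alone they were -0.18 for *Atg13* and -0.026 for *Atg101*. When 1 mouse was left out, the values spanned 0 for *Ulk1* (-0.34 to 0.032), *Rb1cc1* (-0.26 to 0.16), *Atg13* (-0.032 to 0.13), *Pik3c3* (-0.053 to 0.18), *Pik3r4* (-0.20 to 0.13), *Atg14* (-0.20 to 0.090), *Atg9a* (-0.35 to 0.025), *Wipi1* (-0.26 to 0.094), *Atg3* (-0.21 to 0.086), *Atg16l1* (-0.045 to 0.030), *Map1lc3a* (-0.10 to 0.0018), *Gabarapl1* (-0.21 to 0.026) and *Nbr1* (-0.18 to 0.084). The causes were not tested. Over all genes, the 217 calls became 48 with no replicate block, 1024 with DESeq2, 1054 with no filter, 76 at a threshold of 0.05, 632 with the other quasi-likelihood method, 115 and 72 with mice 1 and 2 or mice 3 and 4 alone, and 78 to 162 when 1 mouse was left out. Library size alone and no filter moved the median of all genes to -0.09 and -0.16, against -0.003 in the fit reported.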
